A study of Homo sapiens with 6 samples.

Results

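The 40 genes described here encode the machinery of macroautophagy: the complexes that start an autophagosome, the lipid supply and the conjugation enzymes that build it, the ATG8 proteins on its membrane, the receptors that load it, and 4 lysosomal and transcriptional genes of its last step. They were chosen by symbol, and all 40 were found among the 32862 genes of the deposited table. RNA came from SH-SY5Y, a human neuroblastoma cell line. One group of 3 libraries was labelled OTULIN KO (disrupted with CRISPR-Cas9) and the other group of 3 libraries was labelled WT. All 6 libraries came from untreated cells in the same serum-supplemented medium, were made from poly(A) RNA and carry 1 batch value. The labels do not say whether the KO cells were 1 clone or a pool, nor whether replicates were separate cultures, and a p-value here reflects the scatter among the 3 libraries of a group, which may be of technical origin. OTULIN is the deubiquitinase that takes apart linear ubiquitin chains.

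Autophagy encloses cytoplasm in a membrane that then fuses with the lysosome. The ULK kinase complex starts it, a class III phosphatidylinositol 3-kinase marks the membrane with PI3P, and WIPI, ATG2 and ATG9 proteins bring PI3P readers and lipid. A ubiquitin-like cascade then attaches the ATG8 proteins (LC3 and GABARAP) to the membrane lipid, where receptors such as p62 tether ubiquitinated cargo. Neurons depend on the pathway for turnover of aggregated proteins and damaged organelles, and TFEB and TFE3 are transcription factors that activate many of its genes and those of lysosomes.

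The KO libraries were far shallower than the WT libraries. They held 725827 to 862932 counts in KO and 61772795 to 64352333 in WT, WT totals 78.5 times those of KO on average, and 2306 to 2567 genes had a count in KO libraries against 27453 to 27958 in WT. OTULIN itself had 0 counts in each KO library and 1682, 2101 and 2155 counts in the WT libraries. That is at least 25.2-fold lower in KO (edgeR quasi-likelihood adjusted p = 0.00011), taking 3 counts in the KO libraries together, 1.25 CPM, as the limit (CPM is the count scaled to a library total of 1000000). OTULIN entered the test through its WT level alone, so it could only come out lower in KO. The result is no specific check of the label, because 71.3% of the genes tested had no KO count at all. Whether the KO values as deposited are comparable with those of WT was not tested, and every bound given as at least a number of folds lower describes these libraries as deposited. Of 10 markers of adrenergic neuroblastoma, 6 were at 0 in all KO libraries (DBH, TH, PHOX2A, GATA3, CHGA and CHGB), and the list's summed level was 525 to 696 CPM in KO and 6217 to 6877 CPM in WT. HAND2, ISL1 and STMN2 were among those detected in KO, at 293, 104 and 69.2 CPM in KO against 945, 318 and 1082 CPM in WT. Markers of other cell types were low in both groups, with sums of 12.4 to 28.97 CPM in KO and 7.43 to 23.5 CPM in WT for epithelial cells, and 46.4 to 134 CPM in KO and 76.3 to 87.1 CPM in WT for fibroblasts. They were 4.64 to 26.2 CPM in KO and 0.466 to 3.29 CPM in WT for blood and microglia, and 0 to 26.7 CPM in KO and 0.109 to 1.04 CPM in WT for glia and endothelium. In a KO library 3 counts amount to 3.48 to 4.13 CPM, so these sums rest on few counts, and their part in the results below was not tested.

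Most of the autophagy genes had no count in the KO libraries, and a few of them were as high there as in WT or higher. In KO libraries 6, 9 and 7 of the 40 genes had a count, against all 40 in each WT library. Of the 40, 35 passed the filter for testing (a mean of at least 1 across all 6 libraries in FPKM, a level scaled to gene length and to mapped fragments), and WIPI1, MAP1LC3B2, GABARAPL1, OPTN and TFEB did not. By edgeR's quasi-likelihood test with Benjamini-Hochberg adjustment at 0.05, 32 of the 35 were lower in KO, where 88% of all genes tested were lower. Of the 35, 26 were at 0 in KO, as were 71.3% of all genes tested. These 26 passed the filter through their WT level alone, so they could only come out lower. BECN1 and GABARAP were higher, where 7.63% of all genes tested were higher, and ATG5 passed in neither direction, as did 4.39% of all genes tested. The KO and WT values of all 40 genes did not overlap in CPM, as was the case for 96.2% of the genes tested and 69.1% of all genes in the table. The count of lower genes is thus close to the background of all genes tested. With genes at 0 in KO set to their bound, the median log2 ratio of KO over WT mean CPM was -4.78 over the 35 genes and -4.55 over all genes tested. Fewer cells and less RNA per cell cannot be told apart in such bulk libraries.

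As a group the 40 genes took a smaller share of all counts in KO, 0.0856%, 0.0701% and 0.113% in the KO libraries against 0.201%, 0.204% and 0.203% in the WT libraries. Nearly all of the KO share came from 4 genes. GABARAP, BECN1, TAX1BP1 and ATG5 were the only ones of the 40 with at least 30 counts pooled over the KO libraries, a depth reached by 13.8% of the genes tested. SQSTM1, GABARAPL2, LAMP2, ATG9A and CALCOCO2 had between 3 and 22 pooled KO counts, and the other 31 genes had 0.

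The zeros were set against the counts that each gene's WT share would give at the depth of the KO libraries. At that share, 30 of the 31 genes would have had at least 3 counts over the KO group, 23 at least 30 and 16 at least 100. Together the 31 would have had 3266 counts. The exception was MAP1LC3B2, with 2.42 expected counts, for which a difference was not detectable at this depth. Of the 35 autophagy genes tested 26 were at 0 in KO, beside 71.3% of all genes tested, so the zeros do not set these genes apart.

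**Figure D1:**
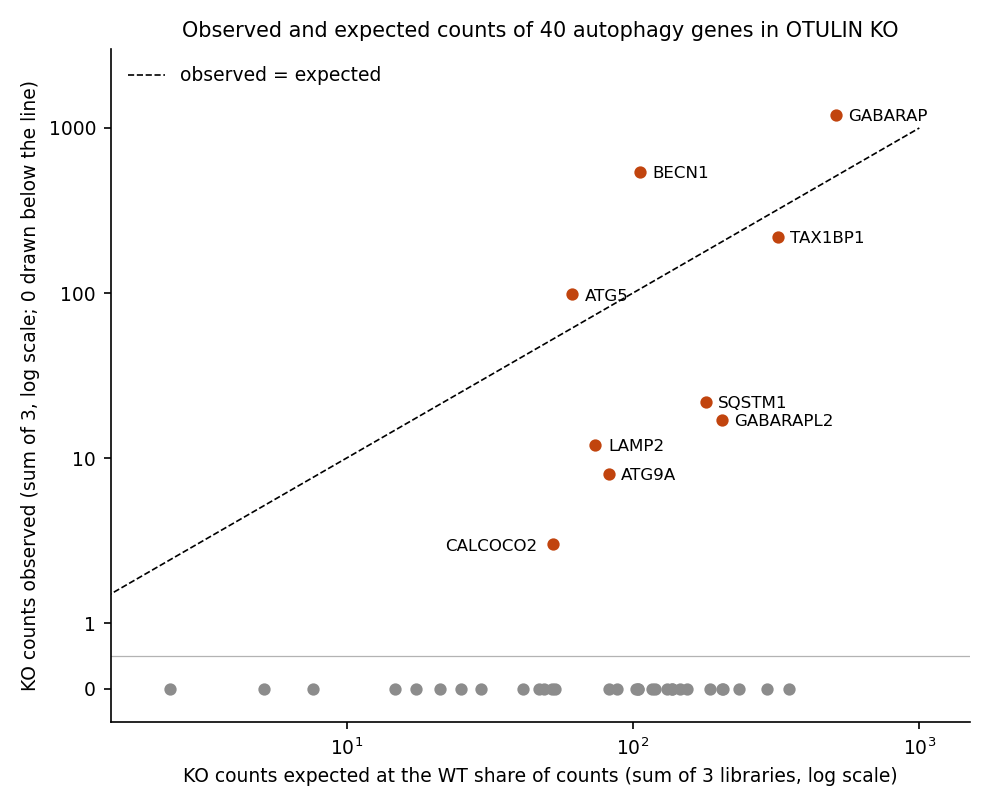
Counts of the 40 autophagy genes summed over the 3 OTULIN KO libraries (y axis, log scale, with 0 drawn below the grey line) against the counts expected at each gene's share of WT counts (x axis, log scale). GABARAP, BECN1 and ATG5 lie above the dashed line of equality, TAX1BP1 and 5 others lie below it, and the 31 grey points at 0 reach an expected count of 349 (LAMP1).

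The ULK complex, which receives the signal from nutrient-sensing kinases, was without a KO count in all of its 5 genes. ULK1, the kinase that phosphorylates the rest of the complex and the PI3K, had 0 counts in each KO library against 6637, 6177 and 5546 counts in the WT libraries, at least 77.9-fold lower in KO. ATG13, the adaptor that links the kinase to its scaffold, had 0 counts in KO against 5493, 5538 and 5216 in WT, at least 69.0-fold lower. RB1CC1 (FIP200), the scaffold, had 0 counts in KO against 2744, 3712 and 3906 in WT, at least 44.0-fold lower. The 2 remaining genes behaved in the same way: ATG101, which stabilises ATG13, was at least 29.3-fold lower in KO, and the second kinase, ULK2, at least 39.7-fold lower. The groups did not overlap for any of the 5, nor for 96.2% of all genes tested. The complex took 0.0325% of WT counts, which would have given 780 counts over the KO group where none was seen. Over all 26 tested autophagy genes at 0 in KO, edgeR's adjusted p lay between 1.2e-05 and 0.00061. Such genes passed the filter on mean FPKM through their WT level alone, so they could only come out lower in KO.

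The class III PI3K complex was split, with 1 subunit higher in KO and its 4 partners at 0. BECN1 (Beclin 1, ENSG00000126581, hg38 chromosome 17, 42810134 to 42833332, minus strand in the table) is the subunit that organises the complex and is bound by BCL2 proteins. It had 167, 162 and 213 counts in the KO libraries against 2425, 2887 and 2966 in the WT libraries, although WT was sequenced many times deeper. All 3 KO libraries were above all 3 WT libraries in CPM. The levels were 229 ± 56.5 CPM in KO and 44.0 ± 4.6 CPM in WT (SD, n = 3 for each group), 5.21-fold higher in KO, with a log2 change of 1.98 (SE 0.16, adjusted p = 3.0e-05 by edgeR). The call held in each of the 16 alternative settings, with log2 changes of 1.41 to 2.38.

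The partners of BECN1 had no KO count. PIK3C3 (VPS34), the lipid kinase that makes PI3P, had 0 counts in KO against 3374, 4001 and 4094 in WT, at least 48.7-fold lower in KO. PIK3R4 (VPS15), its regulatory subunit, had 0 against 2408, 2854 and 2946, at least 34.8-fold lower. ATG14, which directs the complex to autophagosome formation, had 0 against 1203, 1429 and 1458, at least 17.4-fold lower. UVRAG takes the place of ATG14 in the endosomal form of the complex, and it had 0 counts in KO against 1263, 1210 and 1202 in WT, at least 15.6-fold lower. In WT the 5 genes stood close together per length, at 2.43 (UVRAG) to 7.43 FPKM (PIK3R4), with BECN1 at 6.26 ± 0.65 FPKM. In KO, BECN1 alone was at 32.0 ± 8.2 FPKM. All KO counts of these 5 genes were those of BECN1, and the share of all counts taken by these 5 genes was 0.0229% ± 0.0056 in KO and 0.0190% ± 0.0017 in WT (SD, n = 3 for each group).

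A gene on the opposite strand moved with BECN1. PSME3, which encodes a proteasome activator subunit, overlaps BECN1 over 8948 bases in the deposited coordinates. In GENCODE 29 they share 300 exon bases, 4.68% of the exon bases of BECN1. The annotation release used for the counts is not given, so their exon overlap there may differ. PSME3 had 1063, 985 and 1021 counts in KO against 13688, 14139 and 13286 in WT. Its level was 1287 ± 134 CPM in KO and 218 ± 2.8 CPM in WT, 5.90-fold higher in KO (log2 change 2.16, SE 0.08, edgeR adjusted p = 5.3e-06). The other opposite-strand neighbour, CNTD1, covers 12.4% of the exon bases of BECN1 and had 0 counts in KO against 133, 114 and 122 in WT. Whether the counts were made by strand is not given in the sources used here, so reads of BECN1 and PSME3 cannot be told apart where their exons overlap. The part of that overlap in the BECN1 counts was not tested.

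**Figure D2:**
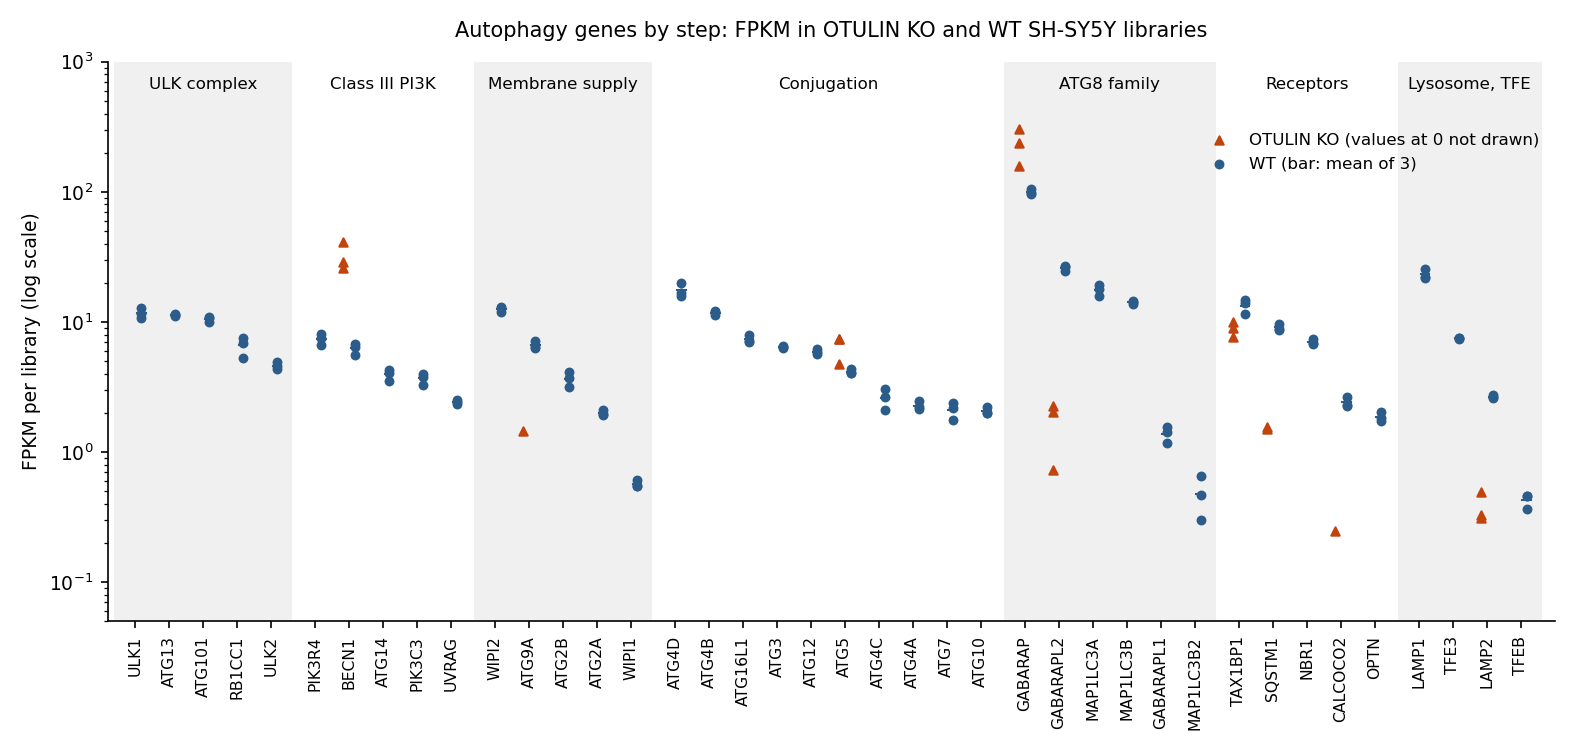
FPKM of the 40 autophagy genes in each library (y axis, log scale), ordered by step and within a step by WT mean, with OTULIN KO as orange triangles left of WT as blue circles and the WT mean as a bar. KO values at 0 are not drawn, so 31 genes show WT points alone, while BECN1, GABARAP and ATG5 have all 3 KO points above WT.

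The genes that bring membrane to the growing autophagosome were at or near 0 in KO. WIPI2, the PI3P reader that recruits the conjugation machinery, had 0 counts in KO against 7882, 8029 and 7198 in WT, at least 98.1-fold lower in KO. ATG2B and ATG2A, which transfer lipid between membranes, had 0 counts in KO against 3083, 3743 and 3941 counts for ATG2B and 1128, 1080 and 1022 for ATG2A in WT, at least 45.7-fold and at least 13.7-fold lower. WIPI1 was too low for testing, with 0 counts in KO against 143, 133 and 128 in WT. These 4 had no overlap between the groups, like 96.2% of all genes tested. WIPI1, the WIPI gene with the lower WT level, would have had 5.15 counts over the KO group at its WT share.

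ATG9A, the transmembrane lipid scramblase carried by the vesicles that seed the autophagosome, was the 1 gene of this step with a KO count, and that count came from 1 library. It had 0, 8 and 0 counts in the KO libraries against 2031, 2393 and 2041 in the WT libraries. The levels were 3.09 ± 5.35 CPM in KO and 34.3 ± 2.5 CPM in WT (SD, n = 3 for each group), 11.1-fold lower in KO, with a log2 change of -3.75 (SE 0.62, adjusted p = 0.00092 by edgeR). Without KO replicate 1 or 3 it was 7.398-fold lower, and without KO replicate 2 it had no KO count. On the same strand a second locus, ENSG00000284820, covers 38.8% of its exon bases and had 0 counts in KO against 644, 743 and 614 in WT, so the counts of this pair are uncertain.

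Of the 10 conjugation genes, 9 were at 0 in KO and lower, and ATG5 was detected in every library. ATG4D and ATG4B, proteases that trim ATG8 proteins before conjugation and release them after it, had 0 counts in KO against 3073, 2534 and 2585 counts for ATG4D and 5370, 5643 and 5104 for ATG4B in WT. That is at least 34.8-fold and at least 68.4-fold lower in KO. ATG16L1, which places the conjugation complex on the membrane, had 0 counts against 2925, 2982 and 3268, at least 39.0-fold lower. ATG3, the E2-like enzyme that passes ATG8 to the lipid, had 0 against 2678, 2697 and 2681, at least 34.2-fold lower. ATG10, the E2-like enzyme for ATG12, had the lowest WT level of the step at 2.07 FPKM and was at least 9.86-fold lower. The ubiquitin-like ATG12, the E1-like ATG7 and the proteases ATG4C and ATG4A were also at 0 in KO, at least 45.8-fold, 16.3-fold, 7.09-fold and 5.85-fold lower. None of the 9 had overlapping groups, as was the case for 96.2% of all genes tested.

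ATG5 (ENSG00000057663, hg38 chromosome 6, 106045423 to 106325791, minus strand) is joined covalently to ATG12, and the conjugate acts as the E3-like enzyme for ATG8 proteins. It had 38, 26 and 34 counts in the KO libraries against 1551, 1608 and 1663 in the WT libraries. The levels were 41.3 ± 9.7 CPM in KO and 25.6 ± 1.1 CPM in WT (SD, n = 3 for each group), and each KO library was above each WT library. The log2 change of 0.28 (SE 0.13) did not pass edgeR's test (adjusted p = 0.067). Its sign depended on the scaling: the change was 0.68 with library totals (edgeR adjusted p = 0.0052) and -0.28 with median-ratio scaling (edgeR adjusted p = 0.068). Without KO replicate 2 it was called higher, at 0.43 (edgeR adjusted p = 0.019). No 50-base stretch of the ATG5 transcript with the longest coding sequence occurred in another gene's transcripts, and its other transcripts were not searched.

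The ATG8 family kept 1 abundant member in KO. GABARAP (ENSG00000170296, hg38 chromosome 17, 7240008 to 7242449, minus strand), the founder of the GABARAP branch that acts late in autophagosome closure and fusion, had 418, 301 and 477 counts in the KO libraries against 13929, 13494 and 12597 in the WT libraries. Every KO library was above every WT library in CPM. The levels were 507 ± 154 CPM in KO and 213 ± 10.3 CPM in WT (SD, n = 3 for each group), 2.39-fold higher in KO, with a log2 change of 0.84 (SE 0.19, adjusted p = 0.0042 by edgeR). The call was lost with median-ratio scaling, where the change was 0.27 (edgeR adjusted p = 0.16), and in DESeq2, also at 0.27 (DESeq2 adjusted p = 0.051). For GABARAP, the GENCODE 29 transcript with the longest coding sequence was searched. Of its 50-base stretches, 42.0% also occur in other genes' transcripts on the same strand. These are a decay-target locus and a processed pseudogene, so the GABARAP counts may hold reads of those.

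GABARAPL2 (GATE-16), a second member of the branch, was detected at a low level in KO. It had 3, 7 and 7 counts in the KO libraries against 5364, 5677 and 4983 in the WT libraries. The levels were 7.15 ± 3.08 CPM in KO and 85.0 ± 3.9 CPM in WT (SD, n = 3 for each group), 11.9-fold lower in KO, with a log2 change of -3.98 (SE 0.20, adjusted p = 1.2e-05 by edgeR). The 2 GABARAP paralogs therefore had log2 changes of opposite sign with library totals, TMM and median-ratio scaling, although GABARAP passed the test only with the first 2 of these. GABARAPL1 was not tested, with 0 counts in KO against 322, 445 and 395 in WT, at least 4.93-fold lower.

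The LC3 branch had no KO count. MAP1LC3B (LC3B), the usual marker of autophagosomes, had 0 counts in KO against 4924, 5040 and 4655 in WT, at least 62.0-fold lower in KO. MAP1LC3A (LC3A) had 0 against 1514, 1450 and 1238, at least 17.8-fold lower. MAP1LC3B2, a near copy of LC3B, had 0 against 40, 89 and 62 and was not tested. The coding sequences of LC3B and LC3B2 are the same at 376 of 378 bases, 99.5%, differing by C30G and A338G, with positions counted from the first base of the start codon and the MAP1LC3B base given first. Their first 90 coding bases in GENCODE 29, from chromosome 16 for MAP1LC3B and chromosome 12 for MAP1LC3B2, are shown because a read from this stretch can be placed in one gene or the other by 1 base. The capital marks the base that differs.
MAP1LC3B: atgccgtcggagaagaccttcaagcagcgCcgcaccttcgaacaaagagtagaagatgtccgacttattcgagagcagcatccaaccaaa
MAP1LC3B2: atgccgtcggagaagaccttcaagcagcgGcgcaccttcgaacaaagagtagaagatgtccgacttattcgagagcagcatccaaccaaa

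The other paralogs of the family differ far more. LC3A and LC3B coding sequences were identical at 67.5% of aligned bases, GABARAP and GABARAPL2 at 62.4%, and GABARAP and GABARAPL1 at 60.8%. No 50-base stretch of the GABARAP transcript searched occurred in transcripts of GABARAPL1 or GABARAPL2. Per length, GABARAP made up 99.2% ± 0.48 of the family's summed FPKM in KO and 62.6% ± 0.82 in WT (SD, n = 3 for each group). GABARAPL2 made up 0.771% in KO and 16.2% in WT. The WT remainder was LC3A at 11.1%, LC3B at 8.86%, GABARAPL1 at 0.875% and MAP1LC3B2 at 0.300%, each at 0 in KO. These shares are within a library and do not depend on the scaling between libraries.

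**Figure D3:**
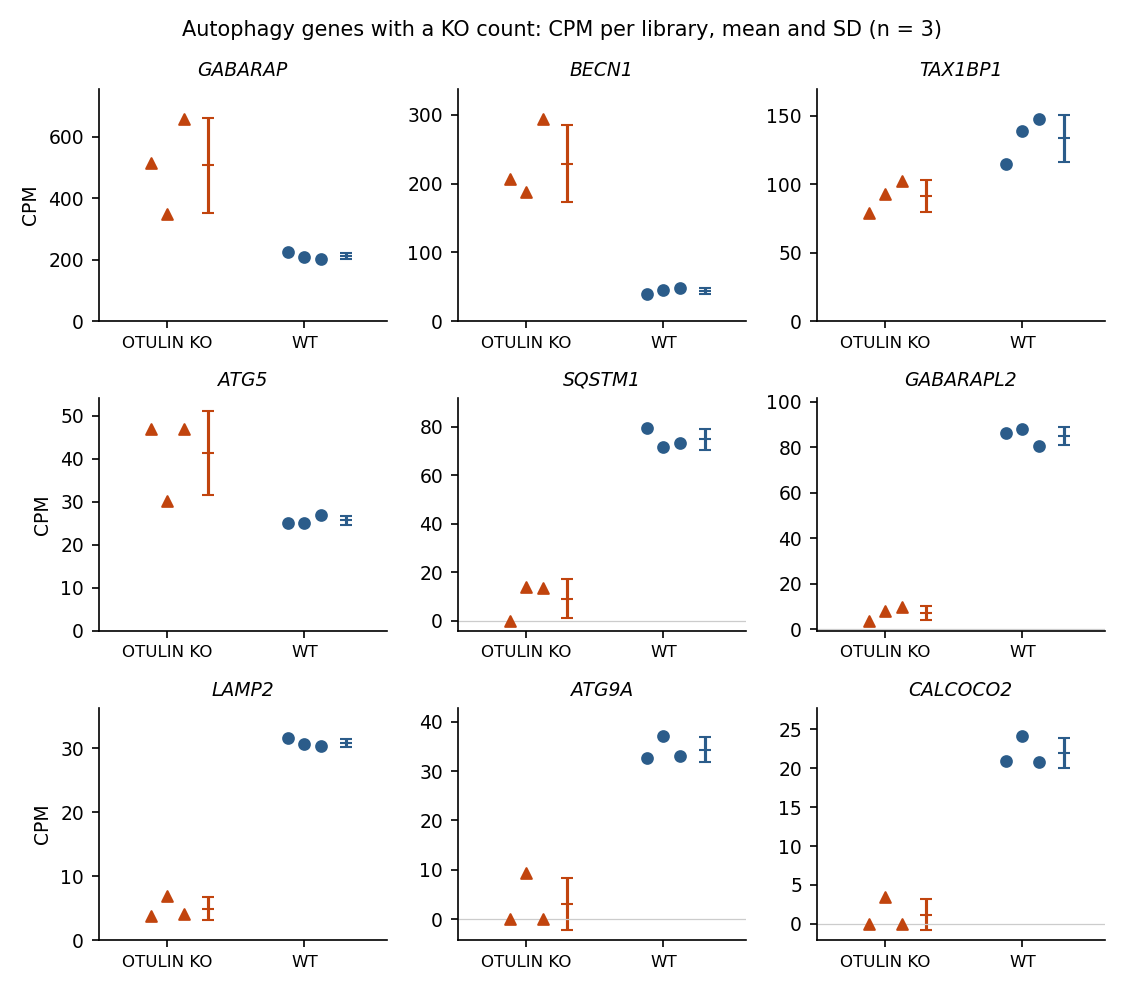
CPM (y axis, linear) of the 9 autophagy genes with a count in any OTULIN KO library, with one point per library, OTULIN KO (orange triangles) left of WT (blue circles), and the mean with SD beside the points (n = 3). GABARAP, BECN1 and ATG5 are higher in every KO library than in any WT library, and the other 6 are lower in every KO library.

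Of the 5 cargo receptors, all of which bind ATG8 proteins and most of which bind ubiquitin, TAX1BP1 kept the largest part of its WT level. It had 64, 80 and 74 counts in the KO libraries against 7115, 8947 and 9102 in the WT libraries. The levels were 91.2 ± 11.5 CPM in KO and 134 ± 17 CPM in WT (SD, n = 3 for each group), and the groups did not overlap. It was 1.46-fold lower in KO, with a log2 change of -0.94 (SE 0.15, adjusted p = 0.00081 by edgeR), and lower under each scaling, from -0.55 with library totals to -1.50 with median-ratio scaling. TAX1BP1 clears protein aggregates and also restrains NF-kB signalling as a partner of the ubiquitin-editing enzyme A20.

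SQSTM1 (p62, hg38 chromosome 5, 179806398 to 179838078), the receptor that condenses ubiquitinated proteins and is itself degraded by autophagy, was lower in KO. It had 0, 12 and 10 counts in the KO libraries against 4953, 4608 and 4521 in the WT libraries. The levels were 9.23 ± 7.99 CPM in KO and 74.8 ± 4.2 CPM in WT (SD, n = 3 for each group), 8.11-fold lower in KO, with a log2 change of -3.42 (SE 0.44, adjusted p = 0.00023 by edgeR). Without KO replicate 1, the library at 0, it was 5.404-fold lower. The opposite-strand gene MRNIP covers 20.7% of the exon bases of SQSTM1 and had 0 counts in KO against 3145, 3433 and 3101 in WT, so WT reads may be shared between them if strand was not used.

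CALCOCO2 (NDP52), a receptor for bacteria and damaged mitochondria, had 0, 3 and 0 counts in KO against 1299, 1553 and 1284 in WT. Its pooled share of counts was 17.6-fold lower in KO, with a 95% counting interval of 6.003 to 85.2, and its log2 change was -4.52 (SE 0.57, adjusted p = 0.00021 by edgeR). All 3 KO counts came from replicate 2. NBR1, a receptor that cooperates with p62, had 0 counts in KO against 3871, 4331 and 3932 in WT, at least 51.5-fold lower. OPTN (optineurin), which binds linear as well as other ubiquitin chains, was not tested, with 0 against 709, 628 and 634, at least 8.37-fold lower. In WT, TAX1BP1 held 39.5% ± 3.6 of the 5 receptors' summed FPKM and SQSTM1 27.0% ± 2.6, followed by NBR1 at 20.8%, CALCOCO2 at 7.14% and OPTN at 5.52%.

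At the lysosome, LAMP2 was just detectable in KO and LAMP1 was not. LAMP2, the membrane glycoprotein that also serves as the receptor of chaperone-mediated autophagy, had 3, 6 and 3 counts in the KO libraries against 1964, 1973 and 1872 in the WT libraries. The levels were 4.93 ± 1.76 CPM in KO and 30.8 ± 0.65 CPM in WT (SD, n = 3 for each group), 6.26-fold lower in KO, with a log2 change of -3.02 (SE 0.20, adjusted p = 1.5e-05 by edgeR). LAMP1, its sister glycoprotein, had 0 counts in KO against 9932, 8983 and 8505 in WT, at least 116-fold lower, the largest such bound among the 40 genes. Per length, LAMP1 stood 8.74 ± 0.54 times above LAMP2 in WT (ratio of FPKM, SD, n = 3), so in KO the gene of lower WT level was the detected one.

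The 2 transcription factors were at 0 in KO. TFE3 had 0 counts in KO against 2110, 2219 and 2150 in WT, at least 27.5-fold lower in KO. TFEB was not tested, with 0 counts against 169, 220 and 213, at least 2.55-fold lower. TFE3 stood 17.7 ± 2.2 times above TFEB in WT (ratio of FPKM, SD, n = 3). TFEB and TFE3 bind E-boxes with the core CACGTG, which was searched in the 250 bases before the RefSeq start (GRCh38.p14) of the 35 autophagy genes matched in that table. Of these, 3 held the core (ATG14, ATG3 and LAMP1), 8.57%, against 6.49% of 27305 promoters. The core reads the same on both strands. Some windows lie inside the gene as deposited, among them those of BECN1 and ATG5, both on the minus strand. The BECN1 window was 42823880 to 42824129 in a gene that reaches 42833332. The ATG5 window was 106316267 to 106316516 in a gene that reaches 106325791. For such genes the bases before the deposited gene start were not searched.

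The LAMP1 window held 5 copies of the core and is shown with the window of GABARAP, the most abundant gene of the 40, which held none. LAMP1 lies at chr13:113296989-113297238 on the plus strand and GABARAP at chr17:7242450-7242699 on the minus strand, each 5′ to 3′ with the core in capitals. A match is a description of letters and says nothing about binding in these cells.
LAMP1: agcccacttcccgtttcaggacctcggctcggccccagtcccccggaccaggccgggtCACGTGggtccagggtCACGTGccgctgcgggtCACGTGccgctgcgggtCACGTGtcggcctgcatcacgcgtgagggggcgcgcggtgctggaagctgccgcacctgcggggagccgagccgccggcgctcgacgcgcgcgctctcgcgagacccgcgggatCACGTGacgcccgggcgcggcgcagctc
GABARAP: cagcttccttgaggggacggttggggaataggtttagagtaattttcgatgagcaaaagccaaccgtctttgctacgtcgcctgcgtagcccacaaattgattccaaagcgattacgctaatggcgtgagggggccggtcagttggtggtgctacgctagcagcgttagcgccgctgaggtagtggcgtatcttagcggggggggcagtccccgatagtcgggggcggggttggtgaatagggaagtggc

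How high BECN1, GABARAP, ATG5 and TAX1BP1 stood in KO depended on how the libraries were scaled. Among the 1496 genes tested with at least 30 pooled KO counts, the median log2 change was 0.57 with TMM, 0.96 with library totals and 0.01 with median-ratio scaling. Relative to that median, BECN1 was 1.41 higher on the log2 scale with TMM, 1.42 with library totals and 1.40 with median-ratio scaling. GABARAP was 0.28 higher, ATG5 0.29 lower and TAX1BP1 1.51 lower than the median with TMM. Among those 1496 genes, 70.3% had a lower log2 change than BECN1, 54.5% than GABARAP, 45.0% than ATG5 and 25.8% than TAX1BP1. GABARAP and ATG5 were thus close to the middle of the genes well detected in KO. These 1496 genes were chosen by their KO counts, so one of low WT level entered only if high in KO. The median and these shares depend on that choice.

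**Figure D4:**
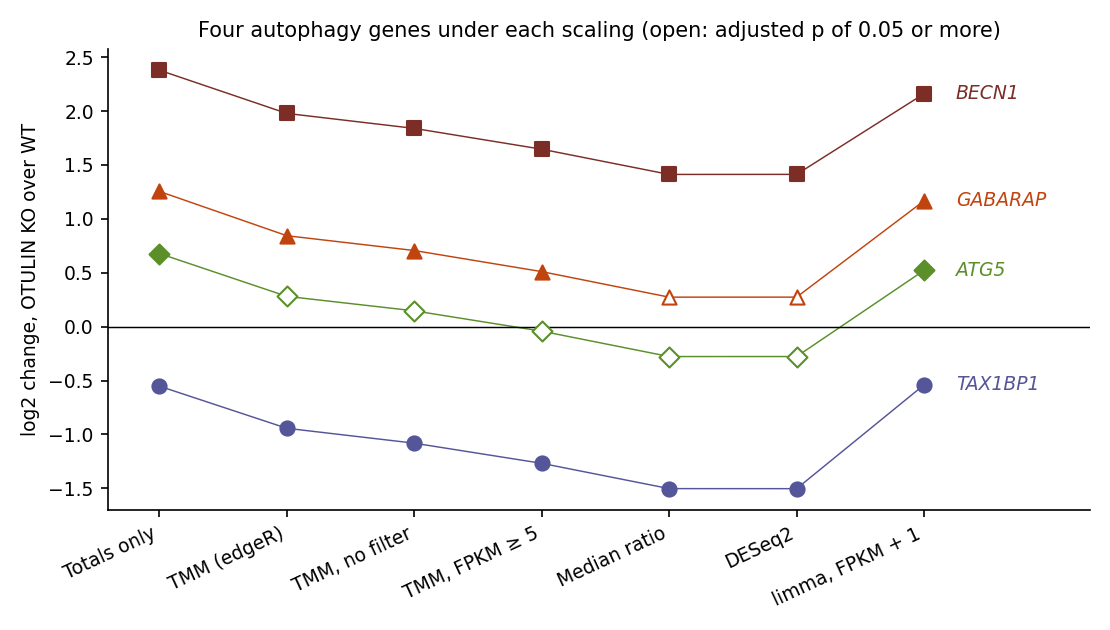
The log2 change (y axis, OTULIN KO over WT) of BECN1, GABARAP, ATG5 and TAX1BP1 under 7 combinations of scaling, filter and tool (x axis), with filled markers where the adjusted p is under 0.05 and open ones elsewhere. BECN1 stays between 1.41 and 2.38 and TAX1BP1 below 0, while GABARAP loses its call with median-ratio scaling and DESeq2, and ATG5 lies below 0 in these and with a mean of at least 5 FPKM.

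Ratios between the well detected genes within a library do not depend on scaling. The BECN1 to TAX1BP1 ratio of FPKM was 3.59 ± 0.64 in KO and 0.470 ± 0.014 in WT (SD, n = 3 for each group), and the BECN1 to ATG5 ratio was 4.99 ± 0.95 in KO and 1.51 ± 0.11 in WT. GABARAP to BECN1 was 7.24 ± 1.06 in KO and 16.1 ± 2.5 in WT. GABARAP to ATG5 was 35.6 in KO and 24.1 in WT, and TAX1BP1 to ATG5 was 1.43 in KO and 3.22 in WT. BECN1 thus stood higher against each of the other 3 in KO than in WT.

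In WT cells, where all 40 genes were detected in each library, their levels per length spanned a 233-fold range of FPKM. GABARAP was highest at 99.9 ± 4.9 FPKM and did not overlap the next gene. GABARAPL2 at 25.9 ± 1.2 FPKM and LAMP1 at 23.3 ± 2.0 FPKM followed, with overlapping values. MAP1LC3A (17.7 FPKM), ATG4D (17.5) and MAP1LC3B (14.1) came next. The lowest were GABARAPL1 (1.39 FPKM), WIPI1 (0.571), MAP1LC3B2 (0.475) and TFEB (0.429). Of the 39 pairs of neighbours in this order, 28 overlapped between libraries and 11 did not. A level of at least 1 FPKM was reached by 37 of the 40 genes and by 38.7% of all genes in the table, and 10 FPKM by 12 of the 40 and by 12.5% of all genes. The spread between WT libraries had a median coefficient of variation of 7.33%, from 1.20% for TFE3 to 37.4% for MAP1LC3B2.

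Most paralog pairs compared in WT were uneven. By ratio of FPKM (SD, n = 3), WIPI2 stood 21.9 ± 1.1 times above WIPI1, GABARAP 3.86 ± 0.17 times above GABARAPL2 and 73.2 ± 14.7 times above GABARAPL1, and ATG4D 7.71 ± 1.1 times above ATG4A. ULK1 stood 2.55 ± 0.33 times above ULK2, ATG2B 1.84 ± 0.31 times above ATG2A and ATG14, the alternative partner of UVRAG in the PI3K, 1.63 ± 0.21 times above it. MAP1LC3A and MAP1LC3B were the most even pair, at a ratio of 1.25 ± 0.09. The ATG8 branch was thus led by GABARAP rather than LC3 transcripts in WT as well as in KO.

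The 9 autophagy genes with a KO count had shorter transcripts than the 31 at 0, with a median length of 2112 bases against 3313 bases and a median GC content of 45.7% against 48.7%. The 31 include the 5 autophagy genes that were not tested. Over the genes tested that had a protein-coding GENCODE 29 transcript, the order of lengths was the reverse. The medians were 3725 bases for 2769 genes with a KO count against 2791 bases for 6764 at 0, and the GC contents were 48.5% and 49.8%. These are descriptions of GENCODE 29 transcripts, and the part of length or base composition in detection was not tested.

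In 6 lists of related genes the shares lower in KO lay near the background of 88%, and the list of mTORC1 regulators also held higher genes, where 7.63% of all genes tested were higher. The median log2 ratio of mean CPM, taken as before with zeros at their bound, was -4.82 to -5.71 in the lists. Genes at 0 in KO could again only come out lower. They were 7 of 10 tested further core genes, 10 of 15 receptors of mitophagy and ER-phagy and 16 of 22 mTORC1 and AMPK genes. They were also 6 of 10 fusion genes, 17 of 26 lysosomal genes and 13 of 18 V-ATPase subunits, beside 71.3% of all genes tested. Of 10 tested genes of a list of further core genes, 9 were lower in KO, and AMBRA1, which binds BECN1, was at 52.9 CPM in KO and 41.1 CPM in WT and was not called (log2 change -0.03, edgeR adjusted p = 0.87), while it was called higher with library totals (0.37, edgeR adjusted p = 0.046) and lower with median-ratio scaling (-0.59, edgeR adjusted p = 0.019). WDR45B and TECPR1 were at least 149-fold and at least 48.6-fold lower. All 15 tested receptors of mitophagy and ER-phagy were lower, among them NCOA4, the ferritin receptor, and SEC62, an ER-phagy receptor, at least 81.4-fold and at least 79.2-fold. All 26 tested lysosomal hydrolases and membrane proteins were lower, with CD63 and PPT1 at least 84.5-fold and at least 83.8-fold. All 18 tested subunits of the V-ATPase, the proton pump of the lysosome, were lower, with ATP6V1G1 and ATP6V0B at least 84.5-fold and at least 79.9-fold. Of 10 tested genes of autophagosome fusion 9 were lower, with VPS39 and VPS41 at least 91.4-fold and at least 75.9-fold, and RAB7A, the late endosomal GTPase, was at 333 ± 36.6 CPM in KO and 235 ± 6.3 CPM in WT and not called (log2 change 0.10, edgeR adjusted p = 0.30). RAB7A was likewise called higher with library totals (0.50, edgeR adjusted p = 0.0055) and lower with median-ratio scaling (-0.46, edgeR adjusted p = 0.0040). The sign of VPS11, one of the 9 lower fusion genes at -0.28 (edgeR adjusted p = 0.047), turned to 0.11 with library totals. Its mean level was 41.3 CPM in KO and 37.9 CPM in WT, and the groups overlapped.

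The mTORC1 and AMPK list, which regulates the ULK complex, held 3 higher genes among its 22 tested, all of them Rag GTPases that bring mTORC1 to the lysosome when amino acids are present. RRAGC had 146, 130 and 149 counts in KO against 1467, 1389 and 1313 in WT, at 179 ± 27.4 CPM in KO and 22.1 ± 1.3 CPM in WT, 8.07-fold higher in KO (log2 change 2.61, SE 0.10, edgeR adjusted p = 5.1e-06). RRAGB had 128, 86 and 172 counts in KO against 709, 762 and 842 in WT, 13.4-fold higher in KO (log2 change 3.32, SE 0.25, edgeR adjusted p = 2.1e-05). RRAGA had 137, 122 and 149 counts in KO against 3854, 3719 and 3651 in WT, 2.88-fold higher in KO (log2 change 1.12, SE 0.11, edgeR adjusted p = 6.1e-05). RRAGA and RRAGB are close paralogs, so their counts are uncertain where reads fit both. All 3 were also higher with library totals and with median-ratio scaling, where RRAGA had the lowest log2 change at 0.56. The other 19 tested genes of the list were lower, so the Rag genes did not move as one. RRAGD, the Rag GTPase gene of the list that was not higher, had 0 counts in KO against 936, 944 and 1187 in WT. That is at least 13.0-fold lower in KO. Also lower were RHEB, the GTPase that activates mTORC1, and AKT1S1, a subunit that restrains it, at least 128-fold and at least 69.5-fold.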

How the data were processed

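Poly(A) RNA of 3 OTULIN KO and 3 WT libraries was measured by sequencing. Per the file headers, the authors deposited 1 count and 1 FPKM value (fragments scaled to gene length and to mapped fragments) per gene in every library. These counts, all whole numbers, were not normalized. The submitters' processing notes list the build hg38 and the tools HISAT2 2.0.4, cutadapt 1.9, DESeq2 and StringTie 1.3.4d, without saying what each did. The sources used here give neither the annotation release nor the strand setting, so antisense, overlapping and near-identical genes can share reads. Every column was matched to a sample by library name, and 0 per-sample columns were left unused.

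The quasi-likelihood test of edgeR 4.0.16 in R 4.3.3 (glmQLFit, glmQLFTest) was run on the 10820 of 32862 genes whose mean FPKM was at least 1. It used TMM factors on library totals, and genotype was its only term. A call has a Benjamini-Hochberg adjusted p under 0.05 over all genes tested. Standard errors were derived from the F statistic and the log2 change. CPM are counts scaled to a library total of 1000000, and a fold compares the mean CPM of the groups. Where a gene was at 0 in KO, the fold is a lower bound against 3 counts over the 2398362 counts of the KO group, and the fitted change is not given. Intervals and floors cover counting error only. Levels between genes are compared as FPKM alone. Replicate pairs differed by 15.5 to 41.7 in chi-square per degree of freedom, so none was 1 library counted again.

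The 40 genes, the 6 lists of related genes and the marker lists were chosen with earlier results of these data known. The genes named were OTULIN, every autophagy gene with a KO count, those at 0 with the highest and the lowest WT FPKM of each step, a few central ones, and up to 2 called genes of largest absolute fitted log2 change in each direction of each related list. That order puts genes at 0 in KO first, and measured folds of genes with a few KO counts can exceed the bounds printed for them. The other autophagy genes are given for completeness, and genes that overlap one of them, AMBRA1, RAB7A, VPS11 and RRAGD were named after their values were seen. RRAGA, the remaining higher gene of the mTORC1 and AMPK list, was named beyond the limit of 2. The alternatives tried were testing without a filter, a mean FPKM of at least 5, filterByExpr, median-ratio scaling, library totals, DESeq2 1.42.0, limma 3.58.1 on log2(FPKM + 1) and log2(FPKM + 0.1), a replicate block, leaving out each library, and, added after the data were seen, leaving out 4 ribosomal RNA loci. Transcripts came from GENCODE 29 (GRCh38) and promoters from RefSeq (GRCh38.p14). Sequence work and figures used Python 3.11.15.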

Additional observations from a re-analysis of the deposited data

How the results depend on the processing

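The number of autophagy genes lower in KO, 32 of 35 tested, was 12 of 15 tested with a mean of at least 5 FPKM, 0 with the replicate block, 26 to 33 when 1 library was left out, and within 1.5 times of 32 in the other alternatives. In the main fit, 26 of the 35 were at 0 in KO and could only come out lower. The cause of the loss under the block was not tested. With the block, 20 of the 35 were lower at an unadjusted p under 0.05, edgeR's adjusted p of the lower genes was 0.050 to 0.116, and calls over all genes fell to 452 higher and 289 lower. DESeq2 without a block called 32 lower. The number higher in KO, 2, was 1 with DESeq2, 1 with median-ratio scaling and 1 with the replicate block, and 2 to 3 when 1 library was left out. The deviations of same-numbered KO and WT libraries had correlations of 0.0198, -0.00434 and 0.0502. Of the genes tested, 71.3% were at 0 in all KO libraries and had no KO deviation. These correlations therefore cannot show whether the replicate numbers pair the libraries.

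Among single genes, the log2 change of ATG5 turned to -0.28 in DESeq2 (adjusted p = 0.14), -0.28 with median-ratio scaling (edgeR adjusted p = 0.068) and -0.042 with a mean of at least 5 FPKM (edgeR adjusted p = 0.79). ATG5 was called higher with library totals (0.68), with limma on log2(FPKM + 1) (0.52) and log2(FPKM + 0.1) (0.61) and without KO replicate 2 (0.43). BECN1 kept its call in all 16 alternatives. GABARAP, at 0.84, was also not called with the replicate block, at 0.81 (edgeR adjusted p = 0.090). RRAGA also lost its call with the replicate block (edgeR adjusted p = 0.073), and RRAGB and RRAGC kept theirs in each alternative where they were tested. SQSTM1, GABARAPL2, LAMP2, ATG9A, CALCOCO2 and TAX1BP1 kept their call in each alternative where they were tested except the replicate block. For genes of few KO counts the depth limits the fold, and 1 KO library supplied every count of ATG9A and of CALCOCO2.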
